A study of Mus musculus with 24 samples.

Results

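The shared effect of *Kdm6a* deletion in spinal cord microglia was measured by pooling all 24 RNA-seq libraries of the series, 12 from *Kdm6a* conditional knockout (cKO) mice and 12 from wildtype mice, with sex as a block. Each genotype held 6 female and 6 male libraries. All mice had EAE, experimental autoimmune encephalomyelitis, in which T cells primed against myelin inflame brain and spinal cord, much as in multiple sclerosis, and no healthy group was part of the comparison. The design text names *Tmem119*-Cre:RiboTag mice. *Tmem119*-Cre drives recombination in microglia, and RiboTag puts an epitope on a ribosomal protein of the Cre-expressing cells. Both genotypes are described with these alleles, neither the deleted exons nor the ages are stated in the labels, and no label ties each library to an animal of its own, so p-values measure the spread between these libraries.

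Within this comparison 2 sets of autosomal genes are described. The first holds 27 genes that passed the test in females and in males in the same direction. The second holds 157 genes that passed only when the sexes were pooled. Both come from 16535 genes tested, of which 15654 were autosomal.

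*Kdm6a* (also called *Utx*) encodes a histone demethylase that removes the repressive methyl marks of lysine 27 on histone H3, which the Polycomb enzyme *Ezh2* and its complex place. It also works as a subunit of the complexes that mark enhancers, and it can act on genes without its enzyme activity. The gene lies on the X chromosome and escapes X inactivation, so that females carry a double dose, while males have the related Y-linked gene *Uty*. Microglia are the resident macrophages of the brain and spinal cord. In EAE they leave their homeostatic state, present antigen, take up myelin debris and answer interferons that infiltrating lymphocytes release.

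Total counts were 27110133 to 40554736 per library. All 10 microglia markers examined were detected in every library, among them *Cx3cr1* at 670 to 2810 CPM (read counts scaled to equal library size, as counts per 1e6), *Csf1r* at 1560 to 3180 CPM and *Tmem119* at 190 to 470 CPM. Transcripts of other cells were also present, since 10 oligodendrocyte markers summed to 2360 to 3740 CPM in cKO and 2490 to 3390 CPM in wildtype libraries. From earlier results of these data 4 libraries are doubted, female wildtype 2, 3 and 5 and male cKO 3. The sample titles also carry a number that the labels do not explain. Of the 7 numbers 3 belonged to cKO and 4 to wildtype libraries and 5 were held by both sexes. No number joined the genotypes, so a difference between numbers and one between genotypes cannot be told apart within a single number.

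*Kdm6a* itself (ENSMUSG00000037369, chromosome X, 18162575 to 18279936, plus strand, mm10) was lower in the cKO libraries. Its lowest, median and highest levels were 1.56, 2.56 and 3.48 CPM in female cKO and 2.2, 4.46 and 6.09 CPM in female wildtype libraries, and 0.648, 0.961 and 1.73 CPM in male cKO and 1.97, 2.70 and 4.03 CPM in male wildtype libraries. The male groups did not overlap, while the female groups did. Pooled over the sexes the log2 fold change was -1.09 (SE 0.18, adjusted p = 3.1e-04, by the quasi-likelihood test of edgeR, Benjamini-Hochberg adjusted), and an exact permutation test within sex on log2(CPM + 1) gave a mean difference of -0.75 (2-sided p = 3.28e-05, 12 against 12 libraries). Gene-level counts keep reads from exons outside the deletion, and in bulk RNA fewer recombined cells and less RNA per cell cannot be told apart. The autosomal relative *Kdm6b* had 6.54, 9.50 and 13.2 CPM in cKO and 5.0, 8.05 and 10.9 CPM in wildtype libraries (log2 0.30, SE 0.13, adjusted p = 0.20). *Ezh2* had 0.650, 1.24 and 2.70 CPM in cKO and 0.880, 1.51 and 4.60 CPM in wildtype libraries (log2 -0.49, SE 0.28, adjusted p = 0.40). Of 23 members of the Kdm6, Polycomb and MLL3/4 complexes *Kdm6a* alone passed, and the Y-linked *Uty* did not in males (log2 -0.19, SE 0.54, adjusted p = 1.0), at 0.268, 0.981 and 1.78 CPM in male cKO and 0.379, 0.937 and 2.38 CPM in male wildtype libraries.

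In the pooled comparison 983 of 16535 genes were called (5.94%), meaning an adjusted p under 0.05 over all genes tested, 422 higher (2.55%) and 561 lower (3.39%) in cKO. Of these 931 of 933 autosomal called genes had the same sign in both sexes, against 9482 of 15654 autosomal genes tested (60.6%). The choice by a pooled p fixes most of that agreement. In contrasts within a sex 1279 genes were called in females (7.74%) and 31 in males (0.187%). Each call in males was also a pooled call, and no gene was called in both sexes in opposite directions. At an unadjusted p under 0.05 there were 2751 genes in the pooled comparison and 803 in males.

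**Figure D1:**
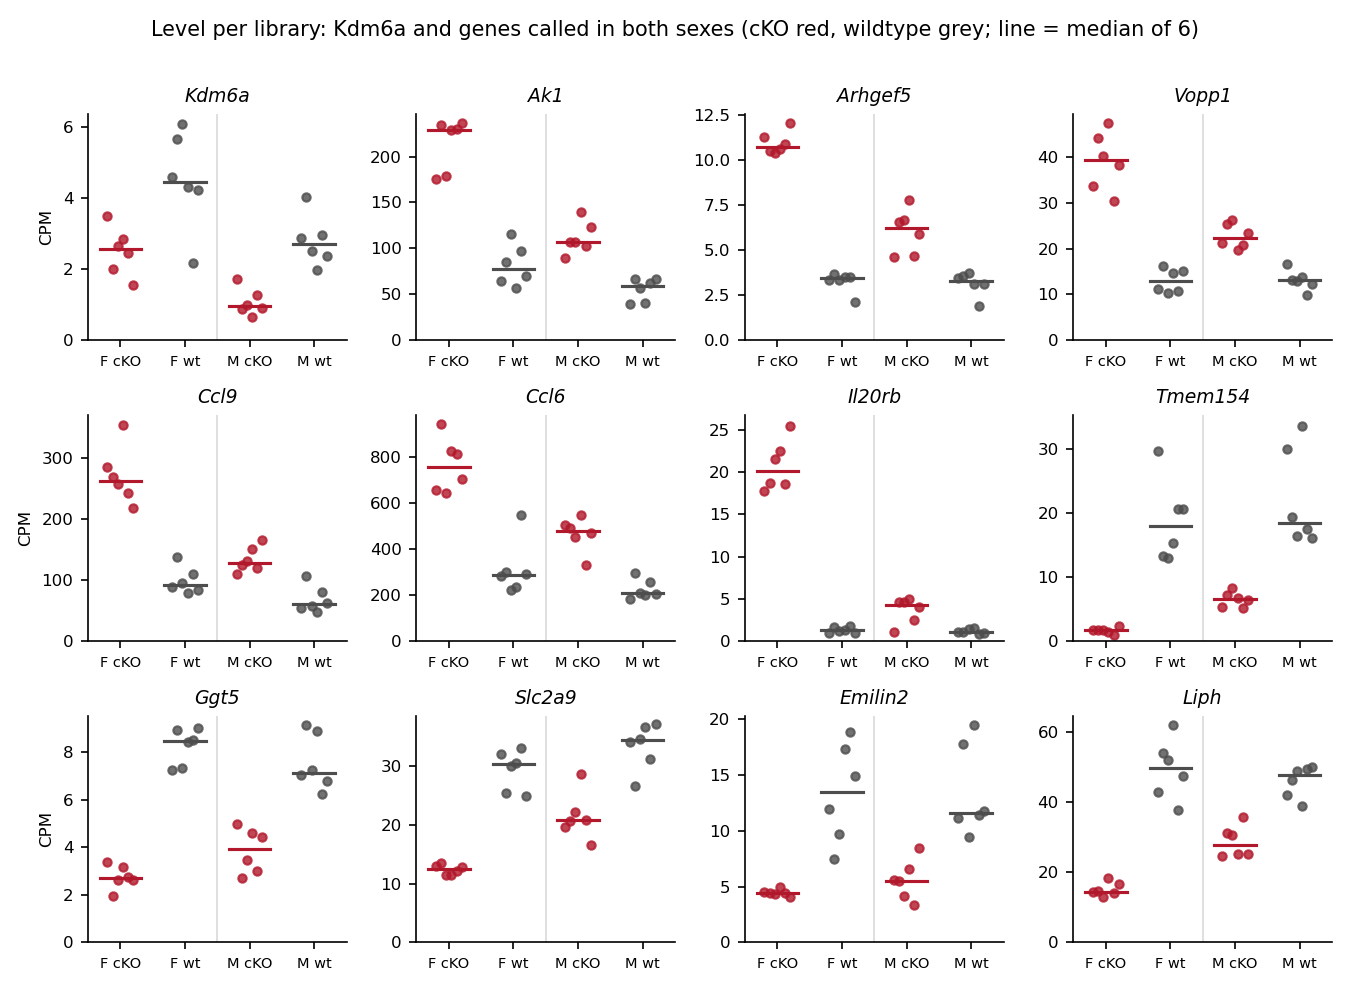
Levels of *Kdm6a* and of 11 autosomal genes called in both sexes in each of the 24 libraries, in CPM on linear axes that start at 0. Red points are cKO and grey points wildtype libraries, bars are the medians of 6, females stand to the left and males to the right, and in *Ak1*, *Arhgef5*, *Vopp1*, *Ccl9*, *Ccl6*, *Tmem154*, *Ggt5*, *Emilin2* and *Liph* the genotypes do not overlap within either sex.

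Genes called in both sexes formed a compact group with large changes, which the choice itself favours. Each had to pass in males, where 31 genes were called in all, and small changes seldom pass there. Of the 27 autosomal genes 11 were higher and 16 lower in cKO, 26 were protein coding, and 21 changed at least 2-fold in the pooled comparison. The absolute log2 change had a median of 1.58 in females, against 1.01 in males, and in all 27 the female change was the larger one. All 6 cKO libraries stood apart from all 6 wildtype libraries in each sex in 21 of the 27 genes, against 51 of 16535 genes tested, and the 12 cKO stood apart from the 12 wildtype libraries with no regard to sex in 8 of the 27, against 19 of 16535. The means of the 3 cKO and 4 wildtype title numbers were separated in 27 of 27, against 1757 of 16535 genes (10.6%). These separations use the libraries that made the calls and describe the spread only.

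Secreted signals were among the genes that rose. *Ccl6* and *Ccl9* are neighbouring genes on chromosome 11 (83587882 to 83593087 and 83572919 to 83578636) for CC chemokines of rodents, which attract myeloid cells through *Ccr1*. *Ccl6* had 646, 760 and 945 CPM (lowest, median and highest) in female cKO and 223, 288 and 547 CPM in female wildtype libraries, and 334, 481 and 550 CPM in male cKO and 182, 208 and 297 CPM in male wildtype libraries. The genotypes did not overlap within a sex, with a log2 change of 1.17 pooled (SE 0.13, adjusted p = 1.4e-06), against 1.28 in females alone and 1.05 in males alone. *Ccl9* had 218, 263 and 354 CPM in female cKO and 79.5, 92 and 138 CPM in female wildtype libraries, and 110, 128 and 165 CPM in male cKO and 48.6, 60.2 and 107 CPM in male wildtype libraries. Its pooled log2 change was 1.21 (SE 0.13, adjusted p = 1.4e-06). *Klk8*, a secreted serine protease, also rose by a log2 of 1.41 (SE 0.18, adjusted p = 1.5e-05), with 14.7, 27.2 and 38.4 CPM in cKO and 3.39, 10.1 and 22.3 CPM in wildtype libraries.

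The receptor subunit *Il20rb*, part of the receptors for interleukins of the IL-20 group, had the largest pooled rise of the set. Levels were 17.8, 20.1 and 25.5 CPM in female cKO and 1.02, 1.28 and 1.77 CPM in female wildtype libraries, and 1.06, 4.34 and 4.95 CPM in male cKO and 0.873, 1.09 and 1.52 CPM in male wildtype libraries. The female groups lay far apart, while 1 of the 6 male cKO libraries lay within the wildtype range. Pooled, *Il20rb* rose by 2.84 on the log2 scale (SE 0.31, adjusted p = 1.4e-06), against 3.93 in females alone and 1.64 in males alone. *Stac2*, whose product binds voltage-gated calcium channels, moved in the same direction, with 42.6, 60.9 and 81.4 CPM in female cKO and 7.28, 12.2 and 15.8 CPM in female wildtype libraries, and 12.9, 30.9 and 38.2 CPM in male cKO and 11, 13.1 and 13.7 CPM in male wildtype libraries (pooled log2 1.73, SE 0.19, adjusted p = 1.6e-06).

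Enzymes and regulators inside the cell rose too. The adenylate kinase *Ak1*, which balances ATP, ADP and AMP, had 175, 229 and 236 CPM in female cKO and 56.7, 77.2 and 116 CPM in female wildtype libraries, and 89.6, 107 and 140 CPM in male cKO and 39.1, 59.5 and 67.0 CPM in male wildtype libraries. It had the smallest adjusted p of the higher genes (9.5e-07, log2 1.20, SE 0.12). *Arhgef5*, a guanine nucleotide exchange factor, separated all 12 cKO from all 12 wildtype libraries, at 4.64 to 12.1 CPM in cKO and 1.88 to 3.72 CPM in wildtype (log2 1.35, SE 0.14, adjusted p = 1.3e-06). So did *Vopp1*, a membrane protein of intracellular vesicles, at 19.7 to 47.4 CPM in cKO and 9.94 to 16.6 CPM in wildtype (log2 1.19, SE 0.13, adjusted p = 1.3e-06). *Smap2*, a GTPase-activating protein for Arf proteins in clathrin traffic, was the gene with the most even change. It had 639, 909 and 984 CPM in cKO and 475, 566 and 720 CPM in wildtype libraries, with a log2 change of 0.63 in females and 0.60 in males (pooled 0.61, SE 0.07, adjusted p = 7.6e-06).

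*Vsig10*, a membrane protein with immunoglobulin domains, separated the genotypes in all 24 libraries, at 7.85, 12.2 and 15.2 CPM in cKO and 3.45, 5.85 and 7.32 CPM in wildtype libraries (log2 0.98, SE 0.12, adjusted p = 5.1e-06). Its promoter is shown with that of *Emilin2* because these are the members of the set with the smallest pooled p whose start region held one of the sequence motifs searched. The motifs were GAAANNGAA, the core of the interferon-stimulated response element, GAGGAAGT, a site of ETS factors such as PU.1, and TCACNCCAC, a sterol regulatory element, each on both strands, and a promoter could hold more than one. Sequences run 5′ to 3′ from 250 bases before to 50 bases after a RefSeq start (GRCm38.p6, the assembly of mm10), with the motif in capitals, GAGGAAGT in *Vsig10* (chr5:117319016-117319315, plus strand) and GAAANNGAA in *Emilin2* (chr17:71311507-71311806, minus strand).
Vsig10: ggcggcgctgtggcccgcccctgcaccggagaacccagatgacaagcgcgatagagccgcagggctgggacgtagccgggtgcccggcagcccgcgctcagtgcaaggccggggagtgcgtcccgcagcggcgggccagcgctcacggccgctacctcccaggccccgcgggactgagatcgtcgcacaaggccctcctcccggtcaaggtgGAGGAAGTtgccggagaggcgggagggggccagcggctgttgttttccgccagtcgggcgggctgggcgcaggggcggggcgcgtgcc
Emilin2: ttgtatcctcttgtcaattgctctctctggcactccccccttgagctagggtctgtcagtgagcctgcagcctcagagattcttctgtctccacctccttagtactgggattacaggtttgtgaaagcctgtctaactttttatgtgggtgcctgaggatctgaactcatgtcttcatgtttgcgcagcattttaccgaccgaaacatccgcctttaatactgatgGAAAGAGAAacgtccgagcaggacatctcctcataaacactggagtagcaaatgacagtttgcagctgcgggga
The first capital lies 38 bases before the start in *Vsig10* and 24 bases before it in *Emilin2*. A match of letters is a description and no sign of binding. Over all 11396 tested genes with a promoter in the table GAAANNGAA was held by 8.74%, GAGGAAGT by 3.71% and TCACNCCAC by 1.45%. Among 285 genes called higher the shares were 8.07%, 3.16% and 2.11%, and among 418 genes called lower they were 16.7%, 9.33% and 1.44%. Of 23 genes called in both sexes with a promoter in the table, taken here from all 29 with those on the X chromosome, 3 held GAAANNGAA (13%), all of them lower, and 3 held GAGGAAGT (13%).

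The genes that fell included several for proteins of the cell surface. *Itgal*, the alpha subunit of the integrin LFA-1, had 2.61, 3.90 and 7.25 CPM in female cKO and 35.7, 45.4 and 105 CPM in female wildtype libraries, and 15.6, 19.5 and 22.4 CPM in male cKO and 40.2, 43.2 and 68.8 CPM in male wildtype libraries. The 12 cKO libraries all lay below the 12 wildtype libraries (log2 -2.45, SE 0.30, adjusted p = 6.5e-06). *Adgre1*, the adhesion receptor known as F4/80, had 49.6, 84.1 and 120 CPM in cKO and 89.8, 166 and 211 CPM in wildtype libraries, and the groups were apart within each sex (log2 -0.92, SE 0.11, adjusted p = 4.5e-06). *Ramp1*, which joins a partner to form the receptor for the neuropeptide CGRP, had 5.97, 9.44 and 18.7 CPM in cKO and 11.8, 27.9 and 36.3 CPM in wildtype libraries (log2 -1.47, SE 0.17, adjusted p = 5.1e-06). *Tmem154*, a transmembrane protein, had the smallest pooled p of the 27 genes. It stood at 1.03, 1.75 and 2.33 CPM in female cKO and 13.1, 18 and 29.8 CPM in female wildtype libraries, and at 5.14, 6.62 and 8.32 CPM in male cKO and 16.2, 18.5 and 33.7 CPM in male wildtype libraries (log2 -2.58, SE 0.24, adjusted p = 3.1e-07).

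Several of the lower genes handle lipids, urate, glycans or matrix. *Liph*, a phospholipase that makes lysophosphatidic acid, had 13.1, 21.5 and 35.9 CPM in cKO and 37.8, 48.3 and 62.1 CPM in wildtype libraries, with no overlap (log2 -1.19, SE 0.13, adjusted p = 2.6e-06). *Ggt5*, a gamma-glutamyltransferase that converts leukotriene C4 to D4, had 1.94, 3.10 and 5.0 CPM in cKO and 6.25, 7.91 and 9.16 CPM in wildtype libraries, again with no overlap (log2 -1.27, SE 0.13, adjusted p = 9.5e-07). *Slc2a9*, a urate transporter, fell by 0.94 on the log2 scale (SE 0.10, adjusted p = 1.4e-06), with 11.4, 15.1 and 28.7 CPM in cKO and 24.9, 31.6 and 37.2 CPM in wildtype libraries, where male groups overlapped. *B3gnt8*, a glycosyltransferase that extends N-acetyllactosamine chains, had 0.394, 1.29 and 1.85 CPM in cKO and 1.99, 4.19 and 5.65 CPM in wildtype libraries (log2 -1.81, SE 0.22, adjusted p = 8.0e-06). The matrix glycoprotein *Emilin2*, whose promoter is printed above, had 3.38, 4.51 and 8.49 CPM in cKO and 7.48, 11.9 and 19.4 CPM in wildtype libraries, apart within each sex (log2 -1.43, SE 0.16, adjusted p = 2.4e-06). *Rgl1*, an exchange factor that links Ras to Ral, had 22.5, 31.2 and 48.1 CPM in cKO and 47.8, 59.8 and 68.0 CPM in wildtype libraries (log2 -0.84, SE 0.10, adjusted p = 4.2e-06).

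The remaining 7 members fell outside the rule that set the names and are given here to complete the set, after their values were seen. *Gm5424*, a pseudogene whose reads may belong to a related gene, was higher at 390 CPM on average in cKO and 147 CPM in wildtype (log2 1.34). *Aoah*, which inactivates lipopolysaccharide, was lower at 6.30 CPM in cKO and 22.4 CPM in wildtype (log2 -2.04), and *Prss46* was lower at 0.161 CPM in cKO and 1.06 CPM in wildtype (log2 -2.79). *Gm5431* (log2 -1.40), *Lrguk* (-1.40), *Ppp1r12b*, a regulatory subunit of myosin phosphatase (-1.06), and *Sh3bp5*, an inhibitor of the kinase BTK (-0.81), were the others. On the X chromosome *Kdm6a* and the tetraspanin *Tspan7* (pooled log2 -1.42) were also called in both sexes.

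**Figure D2:**
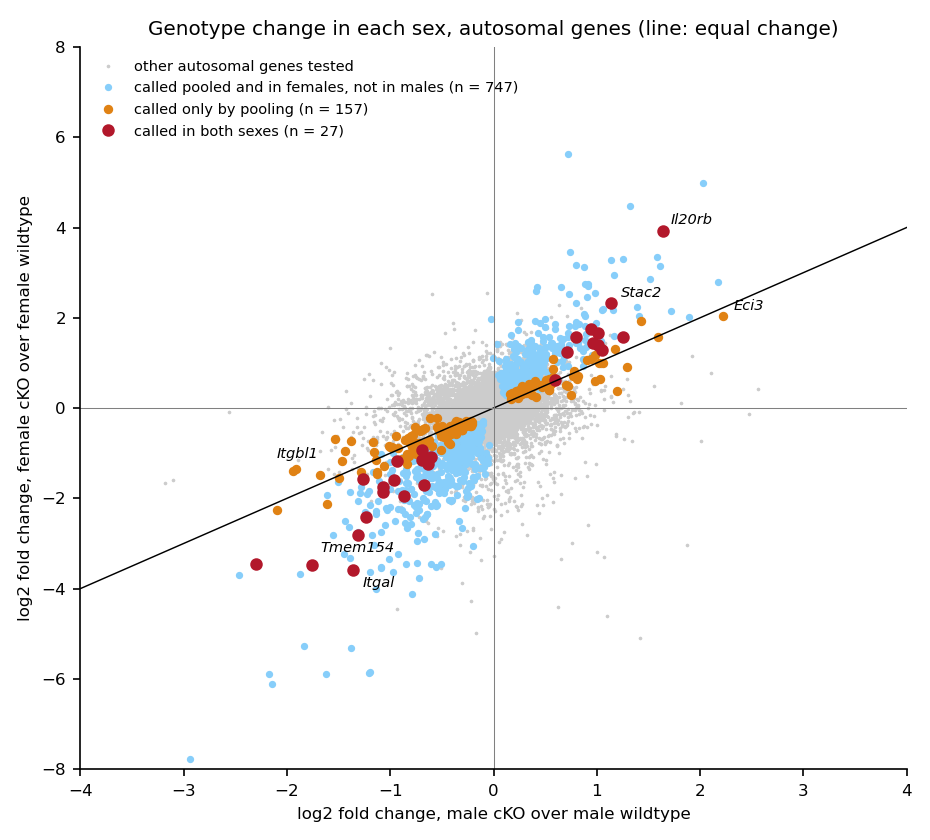
Log2 fold change of cKO over wildtype in females (vertical) against males (horizontal) for autosomal genes tested, with the line of equal change. Red points (27 genes called in both sexes) lie further from 0 in females than in males, orange points (157 called only by pooling) lie near the line, and blue points (747 called pooled and in females, not in males) lie mostly further from 0 in females. The vertical axis spans a wider range than the horizontal one.

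Whether genes chosen in one sex moved in the other was read from fits of each sex alone, which share no library and no estimate of spread. They do share title numbers. Of 15630 genes tested in both fits 940 were called in the female libraries (6.01%), and 858 of these (91.3%) moved in the same direction in males, against 60.8% of all genes. An unadjusted p under 0.05 in that direction was reached in males by 342 of them (36.4%), against 4.98% of all genes, and 2 reached it in the opposite direction. The male change was a median of 0.305 of the female change, against 0.187 over all genes. Choosing genes by their female p lowers this ratio, so it does not measure the relative size of the male change. In the male libraries 44 genes were called (0.282%), all 44 moved in the same direction in females, and 43 (97.7%) reached an unadjusted p under 0.05 there, against 13.6% of all genes. The female change was a median of 1.74 times the male change, against 0.61 over all genes, and here the choice in males lowers the ratio. Together 38 genes were called in both of these separate fits, each in 1 direction, and 21 of them were among the genes called in both sexes in the joint fit.

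The genotype change differed between the sexes in some shared genes. The test of that difference called 68 genes (0.411%), of which 58 were also called in the pooled comparison, so the pooled value there is an average of unequal changes. Among the 27 shared autosomal genes 5 had a called difference, *Itgal* (female minus male log2 change -2.22, adjusted p = 0.0012), *Il20rb* (2.29, adjusted p = 0.0015), *Liph* (-1.02, adjusted p = 0.0043), *Tmem154* (-1.72, adjusted p = 0.0084) and *Gm5431* (adjusted p = 0.024). The 5 autosomal genes with the smallest p for it were not called in males. *Pld4*, an exonuclease of endosomal nucleic acids, had 104, 121 and 143 CPM in female cKO and 437, 480 and 615 CPM in female wildtype libraries, and 318, 366 and 441 CPM in male cKO and 355, 476 and 668 CPM in male wildtype libraries (difference -1.65, adjusted p = 3.2e-05). *Gpr35*, a G protein-coupled receptor, *Alox5ap*, needed for leukotriene synthesis, and the adaptors *Grap* and *Themis2* fell by 3.76, 3.43, 1.88 and 1.66 on the log2 scale in females. Their male values were -0.72, -0.74, -0.52 and -0.48. None of the 157 genes called only by pooling had a called difference, with adjusted p of 0.760 to 1.0, which does not show that their changes were equal.

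Genes that passed only by pooling had small changes of like size in both sexes, which the choice itself favours, since a gene with a large change in 1 sex would have passed there. Of 157 autosomal genes, 145 protein coding, 58 were higher and 99 lower in cKO, and 28 changed at least 2-fold. The absolute log2 change had a median of 0.576 pooled, 0.589 in females and 0.551 in males, and the male change was the larger one in 58. The adjusted p lay between 0.00192 and 0.050 in the pooled comparison, from 0.0501 up in females and from 0.0796 up in males, and 108 of the 157 had an unadjusted p under 0.05 in both sexes. No gene of this set separated the genotypes in both sexes. Title number means were separated in 89 of 157 (56.7%), against 79.9% of all pooled calls and 50.6% of genes with an unadjusted pooled p under 0.05, which were chosen on the same libraries. A mean under 1 CPM was found in 30 (19.1%), against 15.3% of autosomal genes. At the limit *Arhgef7* (adjusted p = 0.0499) was just inside and *Nol4l* (adjusted p = 0.0502) just outside of the pooled calls.

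Higher genes of this set included a ligand of homing receptors, signalling regulators and metabolic enzymes. *Selplg*, the P-selectin ligand PSGL-1 and a homeostatic microglia gene, had 1350, 2020 and 2440 CPM in cKO and 681, 1330 and 1990 CPM in wildtype libraries. The groups overlapped, with a log2 change of 0.53 in females and 0.55 in males (pooled 0.54, SE 0.12, adjusted p = 0.0069). *Ppcdc*, a decarboxylase of coenzyme A synthesis, had the smallest p of the higher genes, at 46.3, 52.5 and 63.4 CPM in cKO and 34.0, 42.8 and 53.6 CPM in wildtype libraries (log2 0.33, SE 0.07, adjusted p = 0.0051). *Rcan1*, which restrains the phosphatase calcineurin, had 103, 140 and 206 CPM in cKO and 79.8, 104 and 135 CPM in wildtype libraries (log2 0.47, SE 0.11, adjusted p = 0.0083). The Ras-family GTPase *Mras* had 47.3, 74.5 and 115 CPM in cKO and 39.1, 59.7 and 67.6 CPM in wildtype libraries, and separated the female but not the male groups (log2 0.47 in each sex). *Pycr1*, an enzyme of proline synthesis (0.56), *Lztfl1*, a regulator of ciliary traffic (0.79), *Zswim5* (0.48), the exchange factor *Arhgef40* (0.44) and *Tceanc2* (0.32) were further higher genes. *Eci3*, an isomerase of fatty acid oxidation, had a log2 change of 2.11 (SE 0.51, adjusted p = 0.012) at 0.00, 0.376 and 0.674 CPM in cKO and 0.00, 0.0639 and 0.211 CPM in wildtype libraries, so few reads carry it.

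*Tnc*, which encodes the matrix protein tenascin C, rose by 1.08 on the log2 scale (SE 0.28, adjusted p = 0.015). It had 3.61, 5.33 and 6.05 CPM in female cKO and 0.790, 1.26 and 5.22 CPM in female wildtype libraries, and 0.838, 1.92 and 3.20 CPM in male cKO and 0.612, 0.820 and 1.61 CPM in male wildtype libraries. Each sex showed overlap, with log2 changes of 1.18 in females and 0.98 in males. Its promoter (chr4:64046966-64047265, minus strand) is shown as the member of this set with the smallest pooled p that held a motif, GAAANNGAA on the opposite strand in capitals, beginning 240 bases before the start.
Tnc: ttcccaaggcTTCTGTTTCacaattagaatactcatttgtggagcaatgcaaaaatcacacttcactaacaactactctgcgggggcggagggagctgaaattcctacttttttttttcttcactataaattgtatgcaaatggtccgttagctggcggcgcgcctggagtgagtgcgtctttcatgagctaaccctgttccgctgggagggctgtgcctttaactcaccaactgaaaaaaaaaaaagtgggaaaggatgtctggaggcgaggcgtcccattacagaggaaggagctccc
Among all 168 genes called only by pooling, on any chromosome, GAAANNGAA was held by 2 of 48 higher (4.17%) and 6 of 74 lower genes (8.11%) with a promoter in the table, beside 8.74% of all.

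**Figure D3:**
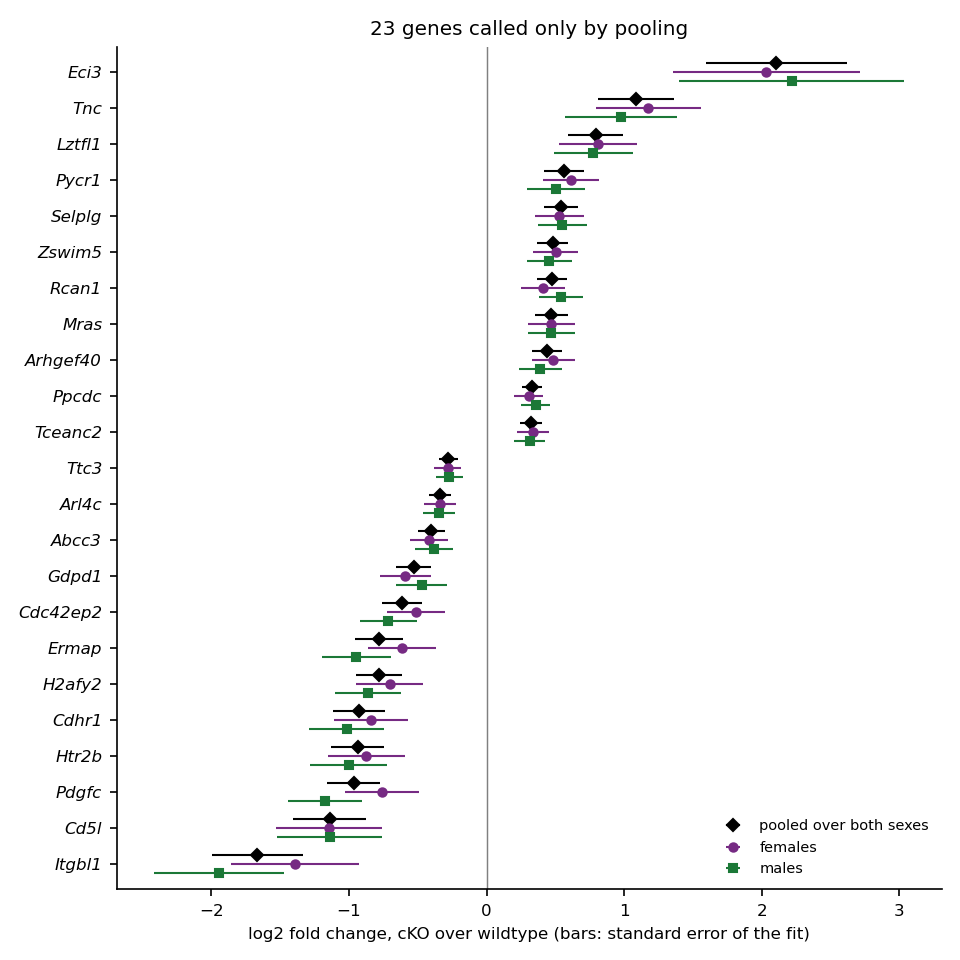
Log2 fold change of cKO over wildtype for 23 genes called only by pooling that had the smallest pooled p of their direction, pooled (black diamonds), in females (purple circles) and in males (green squares), with bars for the standard error. All 3 values lie on the same side of 0 for every gene, from *Eci3* at the top to *Itgbl1* at the bottom, and the pooled bars are the shortest.

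Growth factors, receptors and macrophage products were among the lower genes of this set. *Pdgfc*, a platelet-derived growth factor, had 1.25, 2.67 and 3.49 CPM in female cKO and 1.44, 4.84 and 5.46 CPM in female wildtype libraries, and 1.75, 2.29 and 3.5 CPM in male cKO and 3.56, 5.59 and 7.36 CPM in male wildtype libraries. It separated the male groups, and its pooled log2 change was -0.97 (SE 0.19, adjusted p = 0.0019), with adjusted p of 0.085 in females and 0.080 in males. *Htr2b*, a serotonin receptor that microglia carry, had 2.09, 4.13 and 6.43 CPM in cKO and 3.19, 8.11 and 13.1 CPM in wildtype libraries (log2 -0.94, SE 0.19, adjusted p = 0.0030). *Cd5l*, a protein that macrophages secrete, had 1.16, 2.72 and 6.06 CPM in cKO and 1.48, 6.68 and 11 CPM in wildtype libraries, with the same log2 change of -1.14 in females and males (adjusted p = 0.0082). *Itgbl1*, an integrin beta-like protein, had 0.123, 0.257 and 0.607 CPM in cKO and 0.160, 1.08 and 2.31 CPM in wildtype libraries (log2 -1.67, SE 0.33, adjusted p = 0.0019).

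Other lower genes of the set had varied roles. *H2afy2*, a variant histone of the macroH2A type, had 0.910, 2.32 and 3.12 CPM in cKO and 2.27, 3.82 and 6.38 CPM in wildtype libraries (log2 -0.78, SE 0.17, adjusted p = 0.0040). The small GTPase *Arl4c* had 262, 329 and 397 CPM in cKO and 300, 424 and 531 CPM in wildtype libraries, with -0.34 in both sexes (adjusted p = 0.0089). *Cdc42ep2*, an effector of Cdc42 (-0.61), the efflux transporter *Abcc3* (-0.40), the phosphodiesterase *Gdpd1* (-0.53), the ubiquitin ligase *Ttc3* (-0.28), the cadherin *Cdhr1* (-0.93) and the membrane protein *Ermap* (-0.78) fell too. From the lists, *Ccrl2*, a receptor that binds chemerin (-0.35), and *Tlr9*, the sensor of unmethylated DNA (-0.57), passed only by pooling. Leaving out a single library ended the call of *Tlr9* in 8 cases (log2 -0.56 to -0.50).

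Markers of several other cells moved with genotype beside these genes. As a mean over members in log2(CPM + 1), Schwann cell markers differed by -0.536 between cKO and wildtype (exact permutation within sex, p = 0.0113, adjusted over 14 marker lists 0.0316), T and NK cell markers by -0.219 (adjusted 0.0239), endothelial markers by -0.184 (adjusted 0.0354) and border macrophage markers by -0.403 (adjusted 0.00866), 12 against 12 libraries. Summed over 5 tested Schwann markers the range was 316 to 478 CPM in cKO and 243 to 541 CPM in wildtype libraries, mostly from *Pmp22*, which other cells express. Endothelial markers summed to 59.4 to 169 CPM in cKO and 50.9 to 104 CPM in wildtype libraries, a sum led by *Flt1*, which rose (log2 0.86), whereas *Kdr* (-1.09) and *Cdh5* (-0.80, only by pooling) fell. Among genes called only by pooling *Cd93* (-1.29), *Cd28* (-1.12) and *Apod* (-1.01), chosen after their values were seen, are also known from endothelial cells, T cells and glia of nerves. The part of these cells in the results was not tested.

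Markers of border macrophages, T and NK cells and neutrophils were low in level, while the sum of monocyte-derived cell markers was not. Border macrophage markers, with 6 of 11 tested and *Cd163* and *Lyve1* too low to test, summed to 19.1 to 56.1 CPM in cKO and 40.7 to 98.0 CPM in wildtype libraries, chiefly *Siglec1* (log2 -1.62) and *Ms4a7* (-0.60, only by pooling; lost without any of 11 libraries). The other tested members did not share 1 direction. Median CPM in cKO and wildtype was 0.964 and 0.459 for *Pf4* in females and 0.667 and 0.464 in males. *Folr2* had 2.73 and 2.02 in females and 1.55 and 2.0 in males. *Mrc1* had 0.639 and 1.48 in females and 0.992 and 0.981 in males, and *F13a1* 0.235 and 1.08, and 0.686 and 0.524. T and NK cell markers, with 7 of 14 tested, summed to 1.54 to 6.58 CPM in cKO and 3.85 to 8.85 CPM in wildtype libraries. Monocyte-derived cell markers differed by -0.329 as a mean (p = 0.0447, adjusted 0.0894, exact permutation, 12 against 12), while their sum was 390 to 1260 CPM in cKO and 270 to 778 CPM in wildtype libraries, since *Fn1* rose (log2 1.07). *Ccr2*, which marks monocytes, had 0.137, 0.349 and 0.755 CPM in cKO and 0.219, 0.837 and 1.85 CPM in wildtype libraries (log2 -1.17, adjusted p = 0.024, only by pooling; -1.04 and adjusted p = 0.052 without female wildtype 3). Neutrophil markers, with 2 of 9 tested, differed by 0.384 (adjusted 0.0239), summing to 1.79 to 6.74 CPM in cKO and 1.30 to 5.59 CPM in wildtype libraries, and oligodendrocyte precursor markers by 0.251 (adjusted 0.0239) with *Cspg4* as their called member. Neuron, astrocyte, oligodendrocyte, fibroblast, dendritic cell, B cell and hair follicle lists did not pass (adjusted p of 0.555 to 0.971).

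Interferon-stimulated genes were called in 1 direction. Of 41 tested members 21 fell and 0 rose in the pooled comparison, beside 3.39% of all genes lower, with a median log2 change of -0.67 against -0.01 over all genes. No member was called in both sexes or only by pooling, and the median was -1.0 in females and -0.29 in males. *Oas3*, a sensor of double-stranded RNA whose family shares sequence, had 0.755, 3.85 and 11.3 CPM in cKO and 6.51, 17.3 and 37.1 CPM in wildtype libraries, apart within each sex (log2 -2.30, SE 0.31, adjusted p = 2.3e-05). The antiviral genes *Rsad2* (-1.36), *Rtp4* (-1.14) and *Cmpk2* (-0.81, with -0.87 in females and -0.75 in males) fell with it. The count was 16 without the 4 doubted libraries (median -0.50), 9 with a random effect of title number and 1 with a covariate for markers of infiltrating cells (median -0.20). That covariate was the mean log2 CPM of monocyte-derived, T and NK, B and plasma cell and neutrophil markers, some of which were called themselves. It was -0.26 to 0.48 in female cKO and 0.65 to 1.96 in female wildtype libraries. In males it was -0.02 to 1.09 in cKO and 0.28 to 1.04 in wildtype libraries. The covariate thus tracked genotype in females, and what calls lost with it mean was not tested. Interferon-gamma inducible GTPases had 3 of 13 lower (*Ifi47* -1.53, *Irgm2* -0.58, *Gbp9* -0.62) and a median of -0.75, which was -1.45 in females and -0.02 in males. Their count was 1 without the doubted libraries (median -0.47), 1 with the random effect of title number and 0 with the infiltrating-cell covariate (median 0.05). *Gbp9* lost its call without any of 13 libraries (log2 -0.63 to -0.56).

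**Figure D4:**
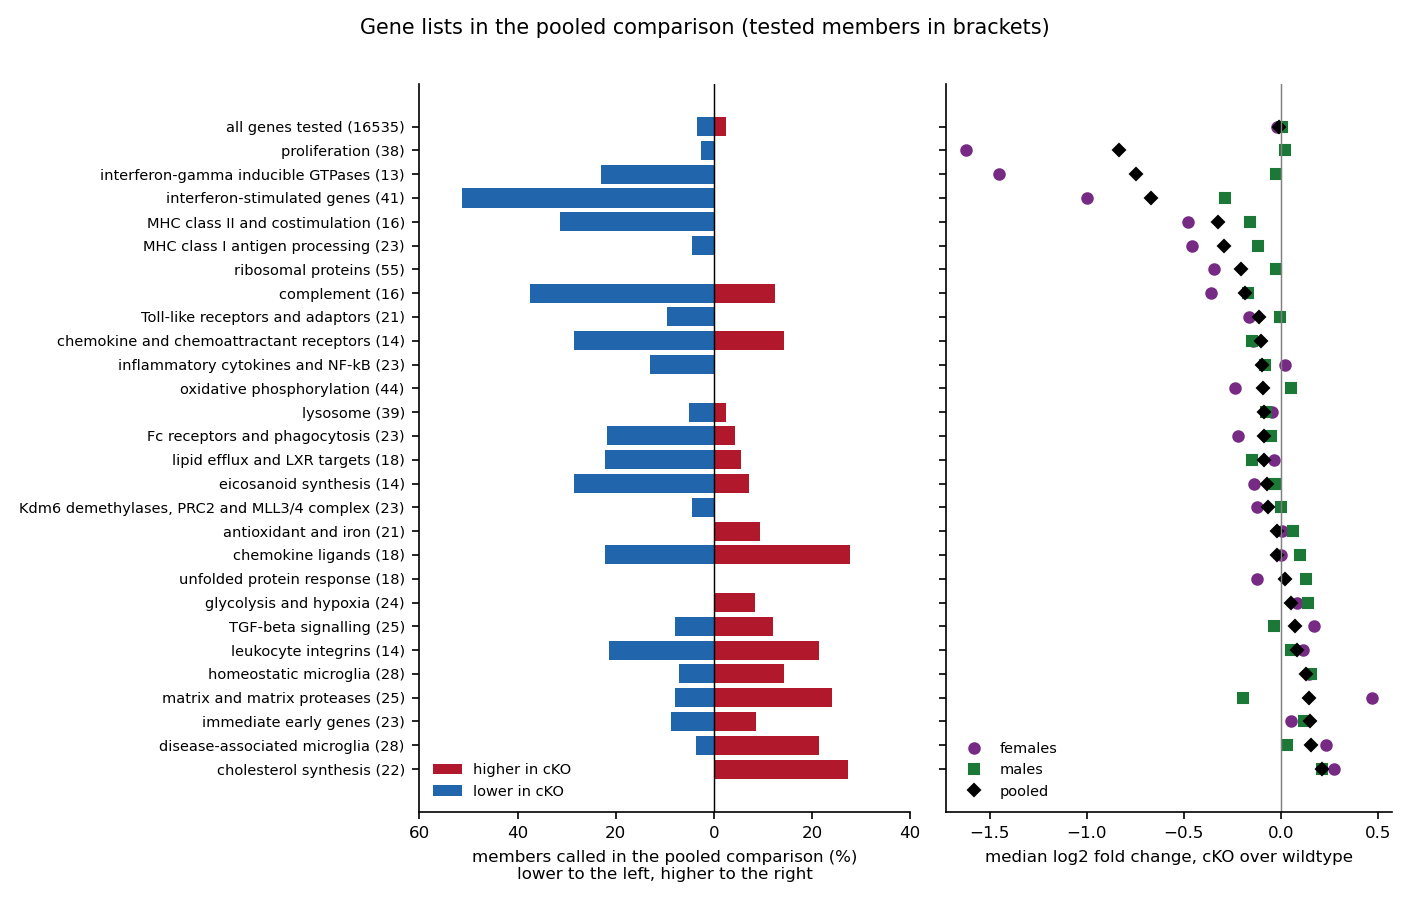
Left, the percent of tested members of each gene list called lower (blue, to the left) and higher (red, to the right) in cKO in the pooled comparison. Right, the median log2 change of the list in females, in males and pooled. Interferon-stimulated genes reach 21 of 41 lower, cholesterol synthesis 6 of 22 higher, and the medians of males lie nearer to 0 than those of females for proliferation, both interferon lists and MHC genes.

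Antigen presentation and inflammatory receptors fell in part, beside 3.39% of all genes lower and 2.55% higher. Of 16 genes of MHC class II and costimulation 5 were lower, among them *Cd80*, a ligand of CD28, at 1.48, 2.95 and 6.67 CPM in cKO and 3.05, 7.63 and 10.9 CPM in wildtype libraries (log2 -1.17, SE 0.19, adjusted p = 2.9e-04), and the peptide-loading regulators *H2-Ob* (-0.64) and *H2-Oa* (-0.73, lost without any of 9 libraries). *Icosl* fell by 0.30 on the log2 scale and lost its call without any of 6 libraries. The class II count was 2 without the doubted libraries, 2 with the random effect of title number and 2 with the infiltrating-cell covariate, where the list median was 0.11, against -0.32 without it. Of 23 MHC class I genes *H2-T23* was the 1 that passed (-0.65). Complement genes had 6 of 16 lower, with *C4b* (-1.83) and the receptor *C3ar1* (-0.41), and 2 higher, the integrin subunits *Itgb2* (0.50) and *Itgax* (0.98). The lower complement count was 2 with the random effect and 2 with the covariate. Fc and phagocytosis receptors had 5 of 23 lower (*Gas6*, a ligand that bridges dying cells to phagocytes, -1.04; *Cd300lf* -1.41; *Stab1* -0.57; *Fcgr1* -0.55), against 2 with the random effect and 0 with the covariate, and 1 higher. In females and males the changes were -1.54 and -0.55 for *Gas6* and -2.5 and -0.33 for *Cd300lf*. For *Stab1* they were -0.73 and -0.40, and for *Fcgr1* -0.98 and -0.13. Cytokine genes had 3 of 23 lower (*Ebi3* -1.48, *Il18bp* -1.44, *Il18* -0.53), Toll-like receptors 2 of 21 lower (*Tlr1* -0.39 and *Tlr9*), and eicosanoid genes 4 of 14 lower (*Alox5ap* -2.07, *Alox5* -1.17, *Ptgs1* -0.86) and 1 higher (*Hpgd*, which degrades prostaglandins, 1.39). *Il18* lost its call without female cKO 2 or 5 (-0.50 and -0.49), and its change was -1.0 in females and -0.07 in males. Of the genes named in this paragraph *Tlr9* was called in neither sex, and the others were called in females but not in males.

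Chemokine and integrin genes were called in both directions, which for the chemokine ligands depended on the processing. Of 18 chemokine ligands 5 were higher, with *Ccl22* (1.47) beside *Ccl6* and *Ccl9*, and 4 lower, with *Ccl8* (-2.02), beside 2.55% and 3.39% of all genes. With the random effect of title number 4 were higher and 0 lower, and with the infiltrating-cell covariate 2 were higher and 0 lower. Of 14 chemoattractant receptors 2 were higher and 4 lower, and 3 of these 6 passed only by pooling. These receptor counts were 0 and 1 both with the random effect and with the covariate. *Fpr1*, a receptor for formyl peptides (-2.98, at 0.00 to 0.705 CPM in cKO and 0.00 to 5.55 CPM in wildtype), rested on male wildtype 3, without which it was -2.11 (adjusted p = 0.11). Leukocyte integrins had 3 of 14 higher and 3 lower, with *Itgb7* (-1.94) beside *Itgal*.

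Lists of microglial state, lipid efflux, matrix and TGF-beta were called in both directions, and those of cholesterol and glycolysis only higher. Over all genes tested 2.55% were higher and 3.39% lower, and a direction with 1 or 2 calls in a list rests on few genes. Of 28 homeostatic microglia genes 4 were higher, among them *Siglech* (0.98), *Cst3* (0.50) and *Selplg*, and 2 lower, with *Fcrls*, an Fc receptor-like microglia gene, at 176, 221 and 449 CPM in cKO and 260, 486 and 682 CPM in wildtype libraries (log2 -0.97, SE 0.16, adjusted p = 2.5e-04). *Tmem119*, the driver gene of the Cre line, did not pass pooled (log2 -0.38, SE 0.13, adjusted p = 0.079), but was lower in females (-0.77, adjusted p = 9.1e-04), with 0.01 in males. The homeostatic list had 2 higher and 1 lower with the random effect of title number, and 1 of each with the infiltrating-cell covariate. Of 28 genes of disease-associated microglia 6 were higher, with *Lyz2* (0.89) and *Ank* (1.1), and *Gpnmb* was lower (-1.01), against 4 higher with the random effect and 1 with the covariate. Cholesterol genes had 6 of 22 higher and 0 lower, among them the regulator *Srebf2* (0.53) and the enzymes *Cyp51* (0.57) and *Dhcr7* (0.40). The count was 6 without the doubted libraries, 4 with a random effect of title number and 2 with the infiltrating-cell covariate. Lipid efflux genes had 4 of 18 lower, with *Apoc4* (-1.69), *Apoc2* (-1.04) and *Apoc1* (-1.01, lost without female wildtype 4 or male wildtype 1), and *Ch25h*, which makes 25-hydroxycholesterol, higher (0.72). None of the lipid efflux calls held with the random effect, and 1 lower call was made with the covariate. Matrix genes had 6 of 25 higher (*Postn* 2.06, *Cspg4* 1.69, *Mmp12* 2.48, *Tnc*) and 2 lower (*Mmp14* -0.60). TGF-beta genes had 3 of 25 higher (*Tgfb2* 2.13, *Smurf1* 0.47) and 2 lower (*Acvrl1* -0.70, *Smad6* -0.59), and glycolysis and hypoxia genes 2 of 24 higher (*Slc2a1* 0.48, *Vegfa* 0.95). In females and males the changes were 3.45 and 0.74 for *Tgfb2*, 0.75 and 0.20 for *Smurf1*, and 2.47 and 0.91 for *Cspg4*.

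Other lists held few calls, beside 2.55% of all genes higher and 3.39% lower. The counts of the lysosome and proliferation lists lay near these shares. None of 44 oxidative phosphorylation, 55 ribosomal protein and 18 unfolded protein response genes passed. Lysosome genes had 1 of 39 higher (*Atp6v0d2* 0.80, lost without any of 15 libraries) and 2 lower, with *Pld4*, antioxidant genes 2 of 21 higher (*Srxn1* 0.52, *Txnrd1* 0.28), and immediate early genes 2 of 23 higher (*Egr1* 0.47 and *Nr4a1* 0.52, lost without any of 5 and 18 libraries) and 2 lower (*Ier3* -0.79, *Jun* -0.36). Proliferation genes had 1 of 38 lower (*Kif23* -2.05, lost without any of 5 libraries), with a list median of -0.84 that was -1.62 in females and 0.02 in males and -0.11 without the doubted libraries.

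The genes with the largest pooled changes had larger values in females than in males. *Xirp1*, an actin-binding protein of muscle, had 20.3, 27.9 and 39.4 CPM in female cKO and 0.0535, 0.461 and 3.37 CPM in female wildtype libraries, and 0.353, 2.44 and 3.0 CPM in male cKO and 0.189, 0.327 and 1.21 CPM in male wildtype libraries (log2 3.73, SE 0.54, adjusted p = 5.5e-05). *Madcam1*, an adhesion ligand of mucosal vessels (2.95), *Fst*, the activin antagonist follistatin (2.55), and the macrophage elastase *Mmp12* (2.48) rose likewise, and none of these was called in males. *P2rx1*, an ATP-gated channel, had 0.00, 0.165 and 0.631 CPM in cKO and 0.790, 1.98 and 6.74 CPM in wildtype libraries, with no overlap over all 24 (log2 -3.57, SE 0.53, adjusted p = 6.9e-05). *Gcm2*, a transcription factor, had 0.00, 0.0668 and 0.539 CPM in cKO and 0.152, 0.950 and 2.83 CPM in wildtype libraries (-3.46). *Saa3*, an acute phase protein, had 1.03, 4.66 and 93.1 CPM in cKO and 5.69, 79.1 and 559 CPM in wildtype libraries (-3.67). The immunoglobulin genes *Ighg1* (-5.28) and *Igkc* (-3.67) were highest in female wildtype 1, at 91.3 and 127 CPM. Without that library *Ighg1* lost its call (-3.25, adjusted p = 0.051), and *Igkc* kept it at -2.27 (adjusted p = 0.039).

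The calls of the shared genes and of those found only by pooling depended on the processing, where a larger margin to the threshold in the shared genes is fixed by their choice. All 27 stayed called in the pooled comparison, with the same sign, under each of the 15 other settings and without each of the 24 libraries. As genes called in both sexes, however, 17 of the 27 remained with the infiltrating-cell covariate, 1 with a random effect of title number and 0 with counts summed per sex and title number. Without male cKO 6 13 remained, the lowest of the single omissions. Of the 157 genes 157 stayed called in the pooled comparison with DESeq2, 92 without the 4 doubted libraries (58.6%) and 90 without female wildtype 4, the lowest of the single omissions. As genes called only by pooling 89 remained with DESeq2, 58 without the doubted libraries and 14 with the infiltrating-cell covariate. A gene leaves that class by losing the pooled call or by gaining a call within a sex. The counts that follow are again pooled calls. A random effect of title number left 10 (6.37%), counts summed per sex and title number left 5 (3.18%), and a covariate for infiltrating cells left 34 (21.7%). Replicates 1 to 3 alone kept 29 and replicates 4 to 6 alone 13, and no gene of the set changed sign in any of these fits. For all 983 pooled calls the shares kept were 65.5% without the doubted libraries, 41.9% with the random effect of title number, 27.8% with summed counts and 24.8% with the infiltrating-cell covariate.

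**Figure D5:**
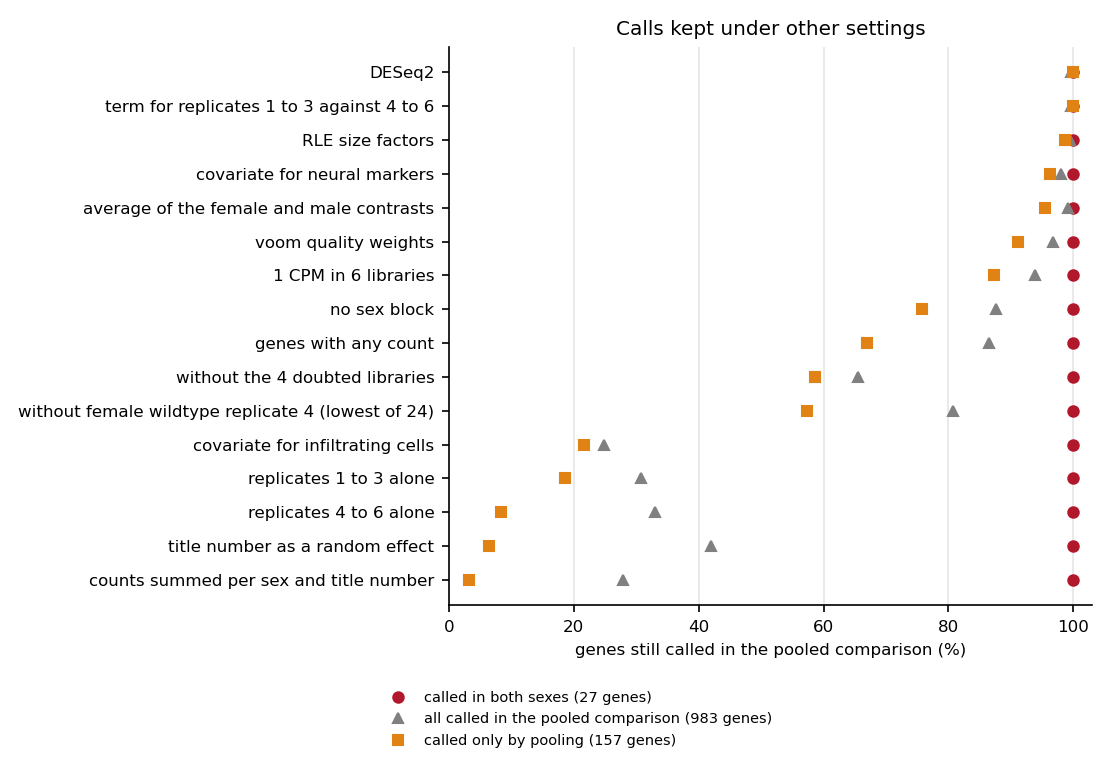
Percent of genes still called in the pooled comparison under each other setting, for the 27 genes called in both sexes (red circles), all 983 pooled calls (grey triangles) and the 157 genes called only by pooling (orange squares). The red circles stay at 100% for the pooled call, which is not the call in both sexes, while the orange squares reach 3.18% with counts summed per sex and title number.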

How the data were processed

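Spinal cord microglia of mice with EAE were profiled by RNA-seq. Per the labels' protocols, mRNA was enriched from RNA that Direct-zol RNA MiniPrep Plus columns had purified, libraries were prepared with KAPA Stranded RNA-Seq reagents, and no ribosome pull-down is described. The submitters' processing notes name bcl2fastq 2.17, FastQC, Trimmomatic and mm10. Which aligner, counter, strand setting and annotation were used is not given in the sources used here. Raw counts per gene were deposited by the authors, for 39017 identifiers in 24 columns, of which 13754 had a total of 0 and 96.6% matched GENCODE M21. Of counts from 1 to 10, 71.8% were even, and the cause was not tested.

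CPM values were computed from these counts with TMM factors (0.873 to 1.17). Genes kept by filterByExpr were fitted with edgeR 4.0.16 (R 4.3.3) by the quasi-likelihood test, as sex plus genotype for the pooled comparison and with 1 mean for each of the 4 groups for contrasts within a sex and their difference. P-values were adjusted by Benjamini and Hochberg over all genes, and standard errors were taken from the fold change and its F statistic. Marker levels and *Kdm6a* were tested by exact permutation within sex, 2-sided, over 924 splits per sex, which is 853776 in all. The fits were tested on simulated counts. Alternatives used limma 3.58.1 and DESeq2 1.42.0.

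The members, lists and tests were chosen with earlier results of these data known. Named were *Kdm6a*, *Uty*, *Kdm6b*, *Ezh2* and *Tmem119*. Of autosomal genes with a symbol other than a model name, further names were the 10 of each direction called in both sexes and the 12 of each direction called only by pooling with the smallest pooled p, the 5 with the smallest p for a difference between the sexes, and the 5 of each direction with the largest change at a mean of at least 1 CPM in either genotype. Up to 4 called members with the smallest p were named for each of 42 lists, 14 of them markers of other cells. Promoters were read from the RefSeq table. Genes that share sequence or overlap on opposite strands are uncertain, since the strand setting is not known. Some genes that these rules name are not reported here.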

Additional observations from a re-analysis of the deposited data

Results flagged for a closer look

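Among genes named by rule outside the lists, the genotype change differed between females and males in 11, by the test of the difference itself. The female minus male log2 change was 2.29 for *Il20rb* (edgeR, adjusted p = 0.0015) and 3.16 for *Madcam1* (adjusted p = 0.014). It was -1.72 for *Tmem154*, -1.02 for *Liph*, -2.22 for *Itgal*, -1.65 for *Pld4*, -3.03 for *Gpr35*, -2.69 for *Alox5ap*, -1.36 for *Grap*, -1.18 for *Themis2* and -3.98 for *P2rx1* (adjusted p = 0.028), so these fell more in females. Genes named from the lists also had called differences. Among them, with adjusted p of 7.5e-04 to 0.042, were *Tgfb2* (2.7), *Cspg4* (1.56), *Ebi3* (-1.54), *Cd300lf* (-2.16), *C4b* (-2.2), *Ptgs1* (-1.09) and *Alox5* (-1.31).

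A single library stood apart from the other 5 of its group in 35 of 252 gene and group pairs by Dixon's test. About 1 in 20 would be flagged among independent, normally distributed values. Some of these genes lie near 0 and the same libraries recur across genes, so that rate is no exact standard here. Female wildtype 5 was the high library for *Ccl6* (547 CPM), *Itgal* (105 CPM), *Gpr35* (93.4 CPM), *Alox5ap* (192 CPM), *Grap* (178 CPM), *Themis2* (211 CPM), *Saa3* (559 CPM) and *P2rx1* (6.74 CPM), and the low one for *Adgre1* (89.8 CPM) and *Pdgfc* (1.44 CPM). Female wildtype 2 was high for *Klk8* (22.3 CPM), *Xirp1* (3.37 CPM) and *Madcam1* (2.34 CPM), female wildtype 1 for *Ighg1* (91.3 CPM) and *Igkc* (127 CPM), and female wildtype 3 for *Uty* (0.217 CPM). Female wildtype 6 and male wildtype 5 were low for *Arhgef5* (2.10 and 1.88 CPM). Among male cKO libraries, replicate 1 was high for *Gpr35* (66.4 CPM), *Alox5ap* (94.6 CPM) and *Saa3* (93.1 CPM), replicate 3 for *Pdgfc* (3.5 CPM) and replicate 4 for *Grap* (97.3 CPM), and replicate 2 was low for *H2afy2* (0.910 CPM). Male wildtype 2 was high for *Tnc* (1.61 CPM) and male wildtype 6 for *Madcam1* (2.98 CPM). Among female cKO libraries, replicate 1 was high for *Tmem119* (291 CPM), replicate 3 for *Ezh2* (2.51 CPM), replicate 4 for *Igkc* (2.05 CPM) and *Gcm2* (0.123 CPM), replicate 5 for *Rcan1* (192 CPM), *Mras* (90.2 CPM) and *Ighg1* (0.445 CPM), and replicate 6 for *Abcc3* (48.0 CPM) and *P2rx1* (0.177 CPM).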

How the results depend on the processing

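The pooled count of 983 genes became 324 with a covariate for infiltrating-cell markers, 276 with counts summed per sex and title number, 416 with title number as a random effect, 327 in replicates 1 to 3 alone and 349 in replicates 4 to 6 alone. The female count of 1279 became 459, 551 and 803 under the first 3 of these. The male count of 31 became 48 without the doubted libraries, 51 with a neural marker covariate, 0 with summed counts, 90 with voom quality weights, 2 with the random effect and 79 with DESeq2. Genes called in both sexes, 27 in all, became 42 with a term for replicates 1 to 3 against 4 to 6, 44 without the doubted libraries, 46 with the neural covariate, 0 with summed counts, 85 with voom, 1 with title number as a random effect and 71 with DESeq2. Genes called only by pooling, 157, became 74 with the infiltrating covariate, 26 with summed counts, 264 with voom and 28 with the random effect. The count for a difference between the sexes, 68, became 111 with the replicate term, 4 with summed counts, 104 with title number as a random effect and 150 with DESeq2. With 1 library left out the pooled count ranged from 784 to 1232, females from 980 to 1619, males from 15 to 63, both sexes from 14 to 59, only by pooling from 125 to 232, and the difference from 43 to 87. The extremes for males and for both sexes were without male cKO 6 and without female wildtype 5, and those for the difference were without male wildtype 1 and without female wildtype 2. *Ezh2*, which did not pass, changed sign to 0.088 with the infiltrating covariate. The cause was not tested, beyond the fewer samples of the summed and reduced fits and of replicates 1 to 3 or 4 to 6 alone. Those replicate subsets also differed in the title numbers they held. No paired analysis was possible because each title number was held by 1 genotype and replicate numbers were given in accession order. Genes under 1 CPM rest on few reads, which limits what could be called there.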
